A study of Mus musculus with 23 samples.

Results

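Ligands and receptors that steer growing axons and migrating neurons were followed across 4 mouse models of cerebellar tumour, granule neuron progenitors and adult cerebellum. The members were the genes of the array's probe annotation whose symbols start with Sema, Plxn, Epha, Ephb, Efna, Efnb, Robo or Unc5, together with Slit1, Slit2, Slit3, Ntn1, Ntn3, Ntn4, Dcc, Nrp1 and Nrp2. This rule found 70 of 18194 named genes. It uses symbols and no measured value, and 3 of the 70 (Unc50, Unc5cl and Plxna4os1) were matched by their letters only and have no guidance role by name.

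The study disrupted Ptch1, which encodes the receptor that holds Sonic hedgehog signalling in check, by CRISPR/Cas9 in cells of the mouse cerebellum, and set the resulting CRISPR-Ptch1 tumours beside other models. The 23 arrays held 3 CRISPR-Ptch1 tumours, of which 2 came from in utero electroporation of wild-type embryos (EP) and 1 from transfection of newborn Trp53-/- mice (TF). The study's text describes expression profiles of 3 tumours of each kind, so not all of its CRISPR-Ptch1 tumours are among these arrays. There were 4 GTML tumours, labelled as sporadic tumours made by Mycn overexpression, 5 MERP tumours, in which Ptch1 was lost after birth in cells expressing Math1, and 4 Ptch1+/- tumours of mice with 1 disrupted germline copy. The controls were 3 samples of granule neuron progenitors (GNPs) isolated between postnatal days 4 and 7, and 4 adult cerebella. CD1 is the strain on every label, although the methods name C57BL/6N for the transfected newborns, and no age or sex is given for the tumours. In utero electroporation reached a mixture of cerebellar cells, and the study typed no cells reached by the transfection of newborns. Math1 restricts the MERP model to the granule lineage. The study's text calls the profiles of the other tumour models published. Its methods name published arrays only for Myc-driven and Wnt-driven tumours, which are not among these 23. They describe array work on cerebellar tumours, GNPs and adult cerebellum at 1 facility, without saying which tumour models. Whether all models share 1 source is not stated, so model and source of the arrays cannot be told apart. The study describes the CRISPR-Ptch1 samples as separate tumours, but the labels name no animals, so a p-value here covers the spread between arrays, which in the other groups may be technical.

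Guidance cues attract or repel the tips of axons and whole migrating neurons through receptors that act on the actin and microtubule skeleton. Netrins signal through Dcc and the Unc5 receptors, Slits through Robo receptors, semaphorins through plexins and neuropilins, and ephrins through Eph receptors on neighbouring cells. In the developing cerebellum these families direct granule neurons from the outer surface inwards, and several of them also pattern blood vessels.

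All values are log2 expression values on the scale deposited by the authors, so a difference of 1 is a doubling, and differences are given as log2 fold change ± SE from limma, with p adjusted over all 18194 genes and called at an adjusted p under 0.05. Means are given ± SD over the arrays of a group, with the n above. A group mean under 4.98, which is 0.5 above the mean lower quartile of the arrays, was read as near background, and a fold change against such a group is a lower limit. Levels of different genes were not set against each other, since each gene is read by its own probes. Ptch1 itself read 12.78 to 13.09 in CRISPR-Ptch1, 9.70 to 10.91 in GTML, 12.75 to 13.24 in MERP and 11.50 to 12.26 in Ptch1+/- tumours, 11.67 to 12.04 in GNPs and 11.88 to 11.997 in adult cerebellum, and a level of this kind does not check a small deletion in the gene. Mycn read 12.07 to 12.57 in CRISPR-Ptch1, 7.15 to 8.39 in GTML, 11.91 to 12.39 in MERP and 11.96 to 12.30 in Ptch1+/- tumours, 11.67 to 11.79 in GNPs and 6.57 to 7.13 in adult cerebellum. On this probe set the tumours labelled for Mycn overexpression were thus far below the other tumours. The sources used here do not say whether it reads the transgene, so it could not check the label. The 10 granule precursor markers averaged 10.94 to 11.40 in CRISPR-Ptch1, 6.38 to 7.13 in GTML, 11.05 to 11.51 in MERP and 11.36 to 11.65 in Ptch1+/- tumours, 10.95 to 11.03 in GNPs and 6.92 to 7.17 in adult cerebellum, so they were low in GTML tumours and adult cerebellum alone. The median of all named genes averaged 7.52 in CRISPR-Ptch1, 7.15 in GTML, 7.32 in MERP and 7.04 in Ptch1+/- tumours, 7.58 in GNPs and 7.35 in adult cerebellum. The gap between 3′ and 5′ control probe sets of Actb and Gapdh, which widens as labelled RNA gets shorter, was 0.19 to 0.23 in CRISPR-Ptch1, 1.10 to 1.28 in GTML, 0.40 to 1.71 in MERP and 0.99 to 1.53 in Ptch1+/- tumours, 0.31 to 0.53 in GNPs and 0.47 to 0.54 in adult cerebellum.

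The group means of most guidance genes differed by more than a doubling. The 6 group means of a member spanned more than 1 on the log2 scale for 54 of the 70 members, more than 2 for 34, more than 3 for 18 and more than 4 for 12. Epha6, Unc5cl, Plxna4os1 and Ntn3 were near background in every group. Of the other 66, the highest group mean fell in GNPs for 19, in Ptch1+/- tumours for 17, in adult cerebellum for 17, in MERP for 6, in GTML for 5 and in CRISPR-Ptch1 tumours for 2. GTML tumours held the lowest mean for 22 of the 66, adult cerebellum for 16, MERP for 14, Ptch1+/- for 7, GNPs for 5 and CRISPR-Ptch1 tumours for 2. These are descriptions, and the tests of single comparisons follow the families.

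**Figure D1:**
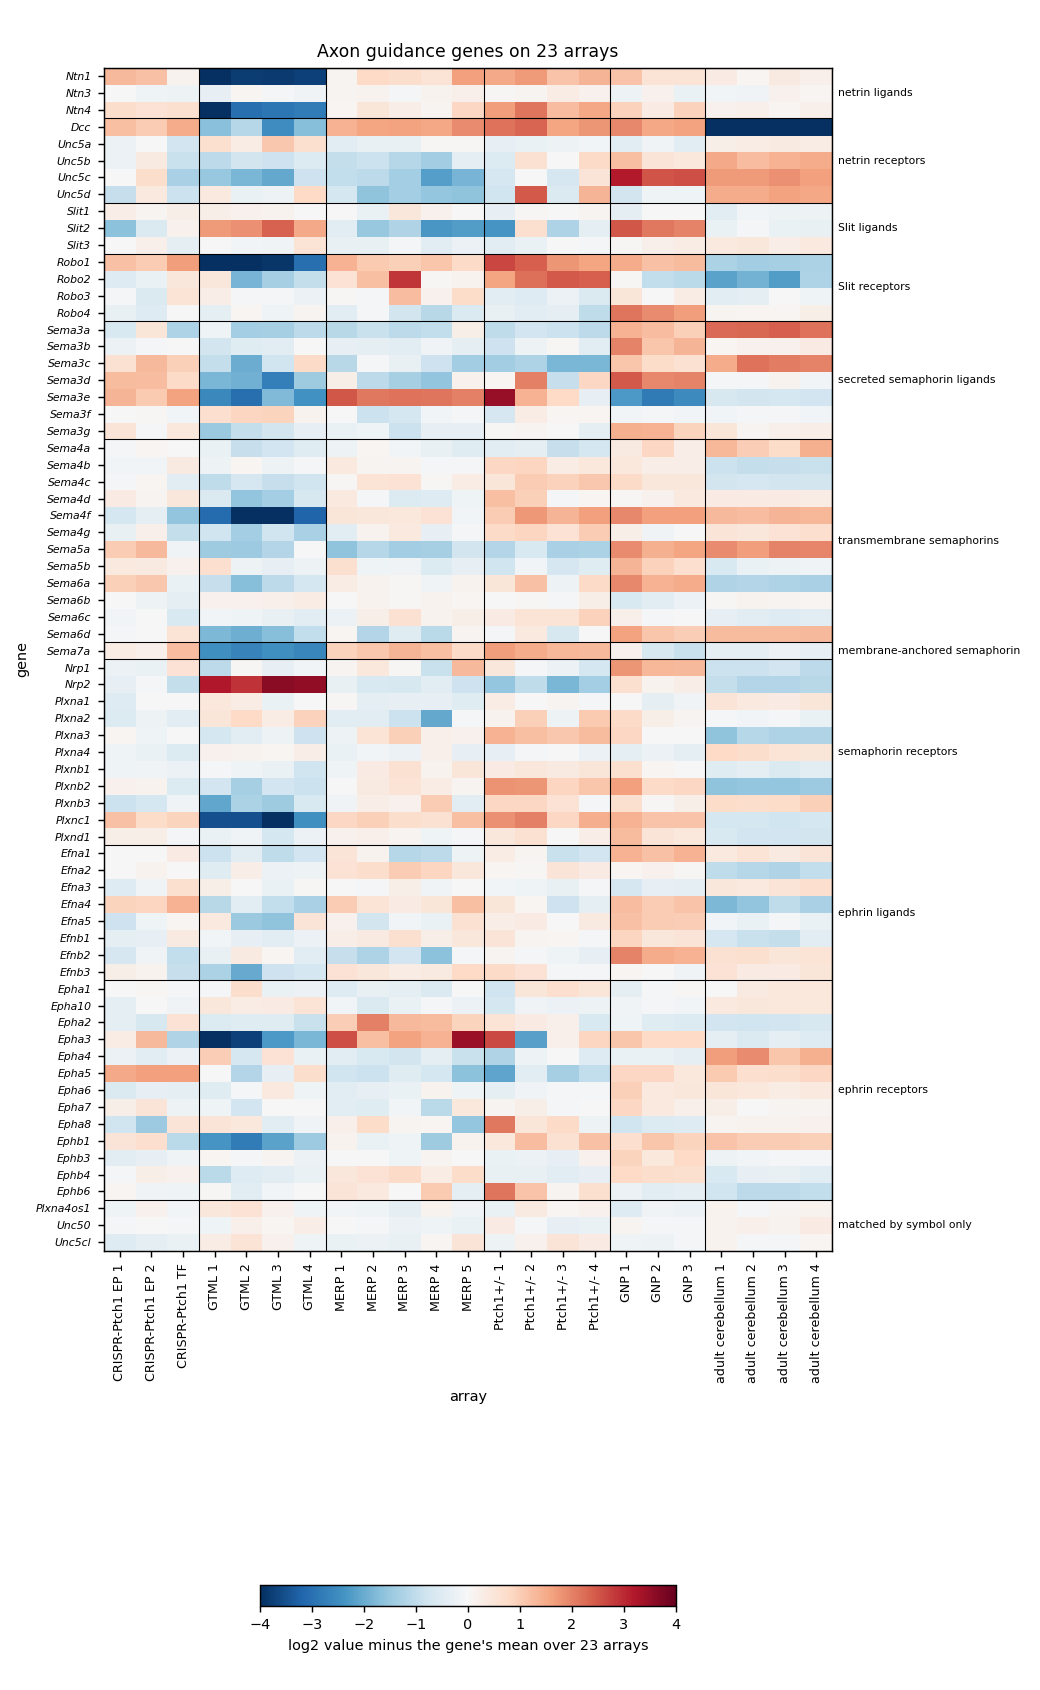
Heat map of the 70 members (rows, grouped by role) on 23 arrays (columns, grouped by model with vertical lines). Colour is the log2 value minus the gene's own mean over the 23 arrays, on a scale that ends at -4 and 4. Dark blue cells mark Ntn1, Ntn4, Robo1, Sema4f and Plxnc1 in GTML tumours and Dcc in adult cerebellum, and Nrp2 is dark red in GTML tumours.

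Among the netrins, Ntn1, the founding secreted cue of the family, read 10.72 and 10.60 in the EP tumours and 9.57 in the TF tumour, 5.44, 5.62, 5.59 and 5.71 in GTML tumours, 9.55, 10.22, 10.14, 9.99 and 11.08 in MERP tumours, 10.94, 11.15, 10.57 and 10.79 in Ptch1+/- tumours, 10.58, 9.98 and 9.97 in GNPs and 9.75, 9.50, 9.79 and 9.62 in adult cerebellum. The 4 GTML tumours lay far below all other arrays, which stayed between 9.50 and 11.15. Ntn1 was lower in GTML than in MERP tumours (-4.61 ± 0.24, adjusted p = 3.8e-12) and higher in CRISPR-Ptch1 than in GTML tumours (4.71 ± 0.28, adjusted p = 3.57e-11). A further probe set for Ntn1 was near background in GTML and MERP tumours, so this pattern rests on 1 probe set. Ntn4, a netrin of basement membranes, read 10.18 and 10.03 in the EP tumours and 10.09 in the TF tumour, 5.02, 6.43, 6.58 and 6.68 in GTML tumours, 9.54, 9.96, 9.74, 9.59 and 10.30 in MERP tumours, 11.14, 11.60, 10.70 and 11.00 in Ptch1+/- tumours, 10.39, 9.80 and 10.38 in GNPs and 9.65, 9.66, 9.55 and 9.65 in adult cerebellum. It had the same low values in GTML tumours, with no overlap with any other group, and was lower there than in MERP tumours (-3.65 ± 0.26, adjusted p = 3.58e-10). CRISPR-Ptch1 tumours were below Ptch1+/- tumours in Ntn4 (-1.01 ± 0.29, adjusted p = 0.0095).

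Dcc, the receptor through which netrin attracts axons, read 11.998 and 11.81 in the EP tumours and 12.28 in the TF tumour, 9.13, 9.65, 8.32 and 9.07 in GTML tumours, 12.19, 12.36, 12.40, 12.35 and 12.69 in MERP tumours, 12.96, 13.12, 12.36 and 12.57 in Ptch1+/- tumours, 12.70, 12.32 and 12.40 in GNPs and 6.11, 6.81, 6.43 and 6.14 in adult cerebellum. Its values were high in GNPs and in the 3 tumour models with Ptch1 disruption, intermediate in GTML tumours and lowest in adult cerebellum. The GTML values overlapped with no other group. Among the models with Ptch1 disruption, Dcc was called lower in CRISPR-Ptch1 (11.81 to 12.28) than in Ptch1+/- tumours (12.36 to 13.12). CRISPR-Ptch1 tumours (5.66 ± 0.24, adjusted p = 3.46e-14) and GNPs (6.10 ± 0.24, adjusted p = 8.66e-15) both exceeded adult cerebellum in Dcc. GTML tumours were below MERP tumours in Dcc (-3.36 ± 0.21, adjusted p = 6.57e-11). A second bright probe set differed by -2.21 between GTML and MERP tumours and another, dimmer one by 0.20, without a test. Between CRISPR-Ptch1 and Ptch1+/- tumours the second bright set differed by -0.83.

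The Unc5 receptors turn netrin attraction into repulsion. Unc5c, whose loss disturbs granule cell positioning in the mouse cerebellum, read 8.70 and 9.43 in the EP tumours and 7.44 in the TF tumour, 7.20, 6.90, 6.68 and 7.90 in GTML tumours, 7.75, 7.68, 7.35, 6.52 and 6.86 in MERP tumours, 8.05, 8.71, 8.06 and 9.23 in Ptch1+/- tumours, 11.91, 11.23 and 11.29 in GNPs and 10.43, 10.43, 10.54 and 10.38 in adult cerebellum. It was high in GNPs and adult cerebellum and lower on every tumour array. Unc5c was lower in MERP tumours than in GNPs (-4.24 ± 0.37, adjusted p = 2.27e-08) and lower in CRISPR-Ptch1 tumours than in GNPs (-2.95 ± 0.42, adjusted p = 3.36e-05), and another of its probe sets differed by -4.29 between MERP tumours and GNPs. Unc5b was also lower in MERP tumours, at 6.83 ± 0.39, than in GNPs, at 8.48 ± 0.43 (-1.65 ± 0.29, adjusted p = 0.000204). Unc5a was higher in GTML, at 7.18 ± 0.33, than in MERP tumours, at 6.32 ± 0.22 (0.85 ± 0.15, adjusted p = 0.000108), as was Unc5d, at 5.91 ± 0.50 in GTML and 4.36 ± 0.38 in MERP tumours (1.55 ± 0.47, adjusted p = 0.0115). Unc5d spread widely among Ptch1+/- tumours, with values of 4.93 to 8.17.

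In the Slit and Robo family, Slit2, a secreted repellent, read 5.17 and 6.22 in the EP tumours and 6.98 in the TF tumour, 8.51, 8.63, 9.17 and 8.32 in GTML tumours, 6.38, 5.29, 5.61, 4.49 and 4.58 in MERP tumours, 4.46, 7.46, 5.59 and 6.44 in Ptch1+/- tumours, 9.29, 8.91 and 8.80 in GNPs and 6.54, 6.75, 6.55 and 6.53 in adult cerebellum. GTML tumours and GNPs were high and the other tumours low, with a wide spread of 4.46 to 7.46 among Ptch1+/- tumours. Slit2 was higher in GTML than in MERP tumours (3.39 ± 0.46, adjusted p = 4.46e-06) and lower in MERP tumours than in GNPs (-3.73 ± 0.50, adjusted p = 7.97e-06). CRISPR-Ptch1 tumours were below both GTML tumours (-2.53 ± 0.52, adjusted p = 0.000639) and GNPs (-2.88 ± 0.56, adjusted p = 0.001), and both calls were lost when the TF tumour stood for the group (adjusted p = 0.116 and 0.118). Slit1 and Slit3 moved little, with ranges of group means under 1.

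Robo1, a Slit receptor, read 10.11 and 9.95 in the EP tumours and 10.62 in the TF tumour, 4.44, 4.14, 5.05 and 5.92 in GTML tumours, 10.34, 10.00, 9.89, 10.05 and 9.71 in MERP tumours, 11.61, 11.32, 10.69 and 10.50 in Ptch1+/- tumours, 10.42, 10.12 and 10.20 in GNPs and 7.67, 7.55, 7.60 and 7.68 in adult cerebellum. All GTML values lay below all others, and the GTML mean of 4.89 ± 0.78 was near background. Robo1 was lower in GTML than in MERP tumours (-5.11 ± 0.27, adjusted p = 3.9e-12) and higher in CRISPR-Ptch1 than in GTML tumours (5.34 ± 0.31, adjusted p = 2.73e-11). Adult cerebellum was also low, with CRISPR-Ptch1 tumours above it (2.60 ± 0.31, adjusted p = 3.87e-07). A pair of further Robo1 probe sets, with group means of 4.99 to 5.43, differed by -0.29 and -0.13 between GTML and MERP tumours, so the size of the change rests on 1 probe set. Robo2, a close relative, read 4.46 and 4.71 in the EP tumours and 5.43 in the TF tumour, 5.44, 3.12, 3.65 and 4.03 in GTML tumours, 5.56, 6.17, 7.84, 5.01 and 5.09 in MERP tumours, 6.53, 7.18, 7.41 and 7.37 in Ptch1+/- tumours, 5.03, 3.99 and 3.90 in GNPs and 2.83, 3.07, 2.75 and 3.72 in adult cerebellum. It was highest in Ptch1+/- tumours, varied from 5.01 to 7.84 among MERP tumours, and was near background in CRISPR-Ptch1 and GTML tumours, GNPs and adult cerebellum. CRISPR-Ptch1 tumours were below Ptch1+/- tumours in Robo2 (-2.26 ± 0.55, adjusted p = 0.00288), and MERP tumours above GNPs (1.63 ± 0.53, adjusted p = 0.0341), a call that was lost without MERP tumour 2, MERP tumour 3, GNP sample 2 or GNP sample 3 (adjusted p = 0.062 to 0.145). Robo4, the Robo of endothelial cells, averaged 5.78 ± 0.38 in MERP tumours and 8.27 ± 0.25 in GNPs, and no other group averaged above the 6.49 ± 0.08 of adult cerebellum.

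**Figure D2:**
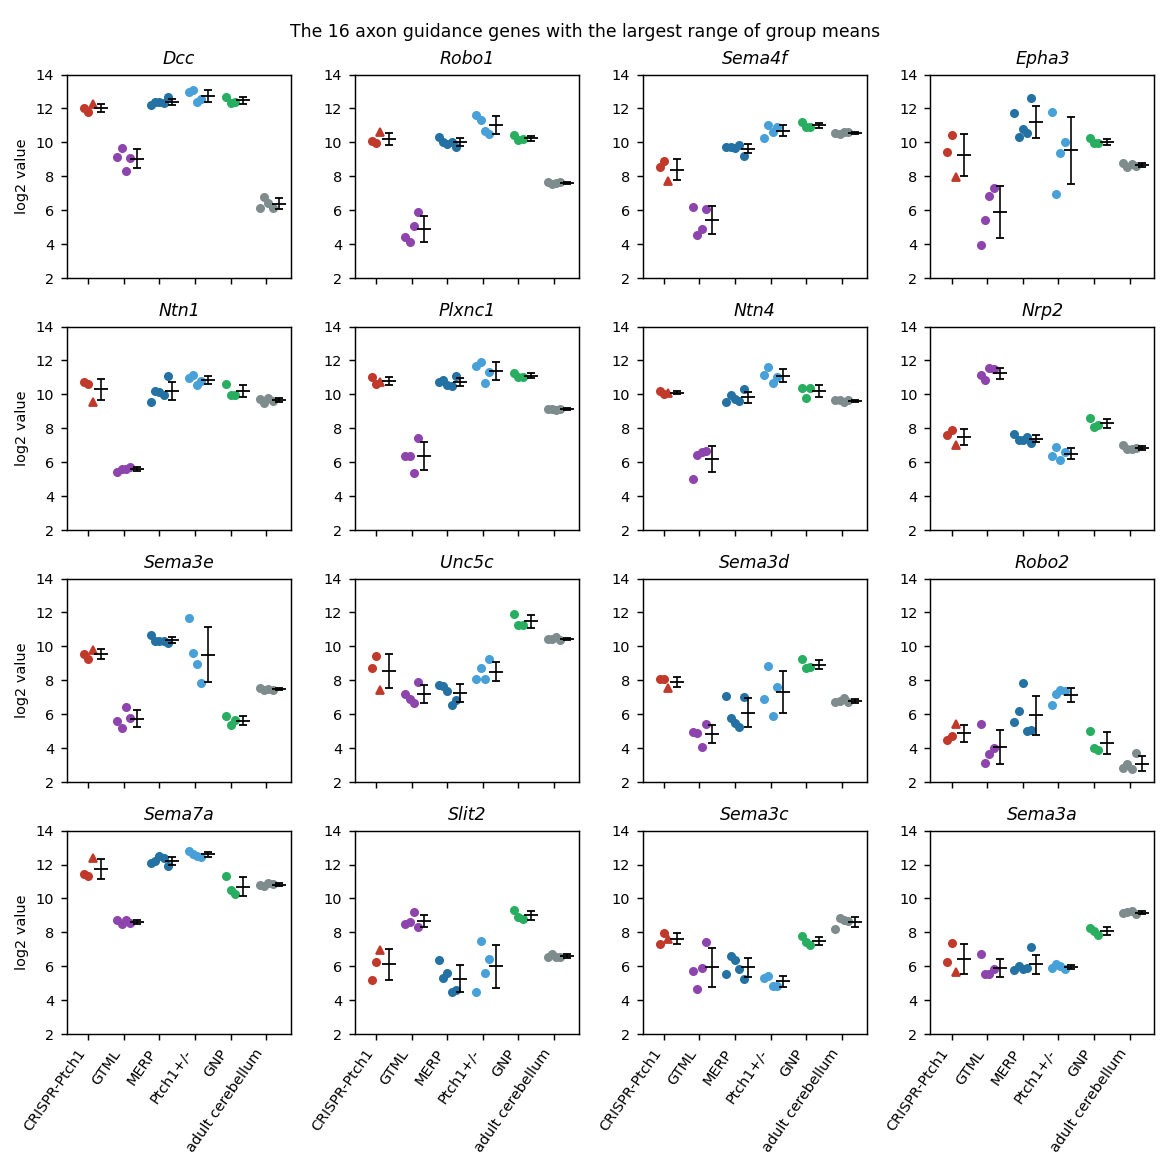
Log2 values of the 16 members with the largest range of group means, 1 panel per gene. Each point is 1 array (the triangle is the TF tumour), and the black mark beside each group is its mean with SD. GTML tumours stand below the other groups for Robo1, Ntn1, Ntn4, Plxnc1, Sema4f and Sema7a and above them for Nrp2.

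Secreted semaphorins of class 3 act through neuropilins and plexins. Sema3e, which binds Plxnd1 without a neuropilin, read 9.56 and 9.24 in the EP tumours and 9.81 in the TF tumour, 5.62, 5.16, 6.42 and 5.76 in GTML tumours, 10.68, 10.30, 10.34, 10.33 and 10.20 in MERP tumours, 11.66, 9.58, 8.98 and 7.86 in Ptch1+/- tumours, 5.88, 5.34 and 5.65 in GNPs and 7.55, 7.45, 7.47 and 7.42 in adult cerebellum. Every tumour with Ptch1 disruption lay above every GNP sample, whereas GTML tumours overlapped with GNPs. Sema3e was higher in MERP tumours than in GNPs (4.75 ± 0.48, adjusted p = 1.92e-07), higher in CRISPR-Ptch1 tumours than in GNPs (3.91 ± 0.54, adjusted p = 2.46e-05) and lower in GTML than in MERP tumours (-4.63 ± 0.44, adjusted p = 3.66e-08). The other 3 Sema3e probe sets differed by 4.97, 3.94 and 2.80 between MERP tumours and GNPs, all in the same direction.

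Sema3d, another secreted semaphorin, read 8.09 and 8.06 in the EP tumours and 7.57 in the TF tumour, 4.97, 4.90, 4.07 and 5.40 in GTML tumours, 7.05, 5.76, 5.48, 5.22 and 6.99 in MERP tumours, 6.88, 8.84, 5.88 and 7.63 in Ptch1+/- tumours, 9.26, 8.73 and 8.80 in GNPs and 6.74, 6.75, 6.95 and 6.69 in adult cerebellum. It was highest in GNPs, lowest in GTML tumours, and spread widely among Ptch1+/- tumours. Sema3d was lower in MERP tumours than in GNPs (-2.83 ± 0.48, adjusted p = 0.000169) and higher in CRISPR-Ptch1 than in GTML tumours (3.07 ± 0.51, adjusted p = 6.37e-05). Its GTML mean of 4.84 was near background. A further Sema3d probe set was near background in these groups, so this pattern rests on 1 probe set. Sema3c, which attracts some cortical axons, read 7.30 and 7.96 in the EP tumours and 7.63 in the TF tumour, 5.72, 4.69, 5.88 and 7.43 in GTML tumours, 5.56, 6.59, 6.39, 5.84 and 5.28 in MERP tumours, 5.29, 5.45, 4.84 and 4.84 in Ptch1+/- tumours, 7.77, 7.40 and 7.27 in GNPs and 8.17, 8.83, 8.74 and 8.66 in adult cerebellum. CRISPR-Ptch1 tumours, GNPs and adult cerebellum were high, and CRISPR-Ptch1 tumours were above Ptch1+/- tumours (2.52 ± 0.42, adjusted p = 8.82e-05) and MERP tumours (1.70 ± 0.40, adjusted p = 0.00787). The other Sema3c probe set was near background and differed by 0.13 and 0.05 there, without a test, so this pattern rests on 1 probe set.

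Sema3a, the classical repellent that signals through Nrp1, read 6.26 and 7.37 in the EP tumours and 5.66 in the TF tumour, 6.70, 5.52, 5.54 and 5.84 in GTML tumours, 5.76, 5.998, 5.82, 5.90 and 7.12 in MERP tumours, 5.87, 6.12, 6.01 and 5.83 in Ptch1+/- tumours, 8.27, 8.11 and 7.84 in GNPs and 9.16, 9.19, 9.26 and 9.06 in adult cerebellum. Its values were high in adult cerebellum and GNPs and low in all 4 tumour models. CRISPR-Ptch1 tumours were below adult cerebellum in Sema3a (-2.74 ± 0.34, adjusted p = 7.08e-07) and MERP tumours below GNPs (-1.95 ± 0.32, adjusted p = 0.000115). Sema3b was 4.79 ± 0.12 in MERP tumours and 6.61 ± 0.45 in GNPs (-1.82 ± 0.19, adjusted p = 1.92e-07). Sema3f, a ligand of Nrp2, had the smallest range of group means among the secreted semaphorins, at 9.87 ± 0.35 in GTML and 8.91 ± 0.41 in MERP tumours (0.96 ± 0.19, adjusted p = 0.000429).

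Of the membrane-bound semaphorins, Sema4f, a transmembrane protein of neurons, read 8.55 and 8.90 in the EP tumours and 7.70 in the TF tumour, 6.20, 4.57, 4.89 and 6.06 in GTML tumours, 9.76, 9.71, 9.69, 9.86 and 9.17 in MERP tumours, 10.27, 11.00, 10.61 and 10.90 in Ptch1+/- tumours, 11.18, 10.89 and 10.92 in GNPs and 10.55, 10.51, 10.61 and 10.59 in adult cerebellum. GTML tumours were lowest, CRISPR-Ptch1 tumours next, and the remaining groups were at 9.17 or above. Sema4f was lower in GTML than in MERP tumours (-4.21 ± 0.28, adjusted p = 1.5e-10). Its other probe set differed by -1.42 there, without a test, so the size of this change rests on 1 probe set. CRISPR-Ptch1 tumours were below GNPs (-2.62 ± 0.34, adjusted p = 1.16e-05), Ptch1+/- tumours (-2.31 ± 0.32, adjusted p = 1.7e-05) and MERP tumours (-1.26 ± 0.30, adjusted p = 0.01), and the last call was lost without the TF tumour (adjusted p = 0.0612).

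Sema7a, which is tethered to the membrane by a lipid anchor and binds Plxnc1, read 11.46 and 11.34 in the EP tumours and 12.40 in the TF tumour, 8.70, 8.46, 8.70 and 8.55 in GTML tumours, 12.07, 12.23, 12.50, 12.36 and 11.93 in MERP tumours, 12.82, 12.62, 12.49 and 12.44 in Ptch1+/- tumours, 11.33, 10.52 and 10.26 in GNPs and 10.78, 10.75, 10.92 and 10.82 in adult cerebellum. GTML tumours were far below all other arrays, and MERP and Ptch1+/- tumours lay above every GNP and adult value. Sema7a was lower in GTML than in MERP tumours (-3.61 ± 0.20, adjusted p = 7.44e-12) and higher in MERP tumours than in GNPs (1.51 ± 0.21, adjusted p = 1.75e-05). CRISPR-Ptch1 tumours were also above GNPs (1.03 ± 0.24, adjusted p = 0.005), but not when these groups were fitted alone (adjusted p = 0.116). Sema5a was 6.15 ± 0.76 in CRISPR-Ptch1, near background in the other tumour models, 7.06 ± 0.23 in GNPs and 7.30 ± 0.14 in adult cerebellum, and Sema6a, which acts in granule cell migration, was 8.21 ± 0.16 in MERP tumours, 9.72 ± 0.29 in GNPs and 6.89 ± 0.05 in adult cerebellum.

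Among the receptors of semaphorins, Plxnc1 and Nrp2 differed in opposite directions between GTML and MERP tumours. Plxnc1, the receptor of Sema7a, read 11.03 and 10.61 in the EP tumours and 10.75 in the TF tumour, 6.36, 6.35, 5.35 and 7.42 in GTML tumours, 10.71, 10.83, 10.55, 10.49 and 11.06 in MERP tumours, 11.70, 11.89, 10.70 and 11.30 in Ptch1+/- tumours, 11.26, 11.01 and 11.01 in GNPs and 9.16, 9.16, 9.05 and 9.15 in adult cerebellum. GTML tumours were lowest without overlap, adult cerebellum was next, and the other groups lay between 10.49 and 11.89. Plxnc1 was lower in GTML than in MERP tumours (-4.36 ± 0.28, adjusted p = 6.81e-11), and a second bright probe set differed by -4.03. Nrp2, a co-receptor for Sema3f and for a vascular growth factor, read 7.62 and 7.88 in the EP tumours and 6.99 in the TF tumour, 11.13, 10.82, 11.53 and 11.50 in GTML tumours, 7.64, 7.33, 7.31, 7.50 and 7.10 in MERP tumours, 6.38, 6.90, 6.12 and 6.57 in Ptch1+/- tumours, 8.58, 8.08 and 8.20 in GNPs and 6.99, 6.77, 6.75 and 6.82 in adult cerebellum. The 4 GTML tumours stood above all other arrays, of which GNPs were highest. Nrp2 was higher in GTML than in MERP tumours (3.87 ± 0.19, adjusted p = 8.02e-13) and lower in CRISPR-Ptch1 than in GTML tumours (-3.75 ± 0.21, adjusted p = 2.07e-11), and its other 3 probe sets were 3.41, 3.74 and 3.66 higher in GTML than in MERP tumours. Plxnb2, which granule precursors need for normal migration, was 11.01 ± 0.42 in CRISPR-Ptch1, 10.16 ± 0.26 in GTML, 11.36 ± 0.21 in MERP and 12.48 ± 0.46 in Ptch1+/- tumours, 12.17 ± 0.49 in GNPs and 9.55 ± 0.06 in adult cerebellum. Nrp1, the Sema3a co-receptor that is also found on vessels, was 10.61 ± 0.25 in GNPs and 8.26 ± 0.13 in adult cerebellum (2.35 ± 0.36, adjusted p = 1.08e-05).

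Promoter sequence was looked up for the members, and 59 of the 70 had a start site in the RefSeq table (GRCm38.p6), some with several, giving 75 windows of 300 bases (250 before and 50 after the start). The 250 bases upstream are printed for 2 genes that were low in GTML tumours, for 1 that was high there and for Sema3e, which was higher in MERP and CRISPR-Ptch1 tumours than in GNPs. Each runs 5′ to 3′ toward the start site, and CG pairs are in capitals because the 4 differ in them.
Robo1 (chr16:72662899-72663148, plus strand): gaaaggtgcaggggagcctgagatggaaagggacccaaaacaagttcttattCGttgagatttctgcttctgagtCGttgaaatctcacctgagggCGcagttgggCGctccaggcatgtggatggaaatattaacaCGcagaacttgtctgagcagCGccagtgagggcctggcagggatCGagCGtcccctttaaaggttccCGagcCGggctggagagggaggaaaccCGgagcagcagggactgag
Plxnc1 (chr10:94944846-94945095, minus strand): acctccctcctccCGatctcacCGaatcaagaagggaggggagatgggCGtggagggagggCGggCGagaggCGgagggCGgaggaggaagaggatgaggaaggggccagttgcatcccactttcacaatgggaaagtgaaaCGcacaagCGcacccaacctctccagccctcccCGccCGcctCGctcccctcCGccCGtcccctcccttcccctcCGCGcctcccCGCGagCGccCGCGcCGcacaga
Nrp2 (chr1:62703067-62703316, plus strand): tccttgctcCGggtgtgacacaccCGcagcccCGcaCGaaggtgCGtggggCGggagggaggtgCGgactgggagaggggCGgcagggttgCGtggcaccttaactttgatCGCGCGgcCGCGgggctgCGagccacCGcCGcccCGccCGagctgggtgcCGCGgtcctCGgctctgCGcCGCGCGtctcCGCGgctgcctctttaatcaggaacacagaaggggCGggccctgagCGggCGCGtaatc
Sema3e (chr5:14025026-14025275, plus strand): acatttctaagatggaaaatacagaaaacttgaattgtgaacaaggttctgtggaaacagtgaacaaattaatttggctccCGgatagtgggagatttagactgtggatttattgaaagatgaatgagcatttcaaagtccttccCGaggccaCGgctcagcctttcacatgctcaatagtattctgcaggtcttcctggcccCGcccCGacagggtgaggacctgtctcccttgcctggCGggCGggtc
In the 250 bases upstream there were 11 CG pairs for Robo1, 22 for Plxnc1, 32 for Nrp2 and 7 for Sema3e, against a median of 6 in the same stretch of all windows. The GC content of the whole windows of 300 bases, in the same order of genes, was 57.0%, 69.0%, 70.7% and 50.7%. The motifs searched, on both strands, were 3. GACCACCCA, the GLI motif of hedgehog signalling, was in 0 of 75 member windows and in 0.253% of all 32851 windows. CACGTG, the E-box of MYC and MYCN, was in 5 of 75 (6.67%) and in 7.15% of all windows, and CAGCTG, an E-box of proneural factors, was in 11 of 75 (14.7%) and in 16.3% of all windows. Of the 4 genes printed, Sema3e alone had a match, a CACGTG that begins 23 bases after the start. A match is a description of letters, and the arrays do not show binding.

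Eph receptors and their ephrin ligands signal between touching cells. Epha3, a receptor for ephrin-A ligands, read 9.44 and 10.43 in the EP tumours and 7.95 in the TF tumour, 3.97, 5.41, 6.86 and 7.32 in GTML tumours, 11.73, 10.34, 10.77, 10.54 and 12.61 in MERP tumours, 11.79, 6.97, 9.36 and 10.02 in Ptch1+/- tumours, 10.25, 9.94 and 9.95 in GNPs and 8.79, 8.57, 8.75 and 8.62 in adult cerebellum. Its SD of 1.99 among Ptch1+/- tumours was the largest of the 16 members described by sample, with values from 6.97 to 11.79, and GTML tumours ran from 3.97 to 7.32, yet GTML and MERP values did not overlap. Epha3 was lower in GTML than in MERP tumours (-5.31 ± 0.75, adjusted p = 7.56e-06) and higher in CRISPR-Ptch1 than in GTML tumours (3.38 ± 0.85, adjusted p = 0.00357). The other probe sets of Epha3 differed by -4.61, -2.71 and -1.10 between GTML and MERP tumours.

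Epha5 was 7.92 ± 0.08 in CRISPR-Ptch1, 6.13 ± 0.79 in GTML, 5.42 ± 0.44 in MERP and 5.11 ± 0.70 in Ptch1+/- tumours, 7.0 ± 0.24 in GNPs and 7.13 ± 0.17 in adult cerebellum, so that CRISPR-Ptch1 tumours were higher than the other tumour models. Epha2 was highest in MERP tumours, at 8.27 ± 0.44, and stood at 6.37 ± 0.20 in GTML tumours and 6.57 ± 0.21 in GNPs. Ephb1 was 6.17 ± 0.56 in GTML tumours and 8.04 ± 0.64 in MERP tumours (-1.88 ± 0.34, adjusted p = 0.000129). Among the ligands, Efnb2, which marks arterial endothelium as well as neurons, was 7.93 ± 0.59 in MERP tumours and 10.46 ± 0.33 in GNPs (-2.53 ± 0.26, adjusted p = 2.21e-07). Efna4 was 7.60 ± 0.30 in CRISPR-Ptch1 tumours, 7.68 ± 0.11 in GNPs and 5.11 ± 0.34 in adult cerebellum.

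The comparison of GTML with MERP tumours asked how tumours labelled as Mycn-driven, in which the Mycn probe set read low, differ from a Ptch1 model. It called 42 of 70 members, against 39.2% of all genes, with 13 members higher and 29 lower in GTML tumours (15.8% and 23.4% of all genes were higher and lower). The median log2 fold change was -0.40 over the members and -0.04 over all genes. The 5 largest increases were Nrp2, Slit2, Unc5d, Plxna2 (1.40 ± 0.30, adjusted p = 0.000863) and Sema3f, and the 5 largest decreases were Epha3, Robo1, Sema3e, Ntn1 and Plxnc1, with values given above. Transmembrane semaphorins had 7 of 12 members lower and 0 higher, and ephrin ligands 4 of 8 lower and 1 higher. Semaphorin receptors were split, with 4 of 11 higher and 5 lower. All 10 granule precursor markers were lower in GTML than in MERP tumours, and 6 of 8 endothelial and pericyte markers were higher (7.90 to 8.12 in GTML and 6.35 to 7.43 in MERP tumours), and their part in the result was not tested. With a minimum of 2-fold, 26 members (4 higher and 22 lower) and 13.8% of all genes were called. Centring on all probe sets gave 40 calls, with 8 higher and 32 lower (12.1% and 29.3% of all genes).

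**Figure D3:**
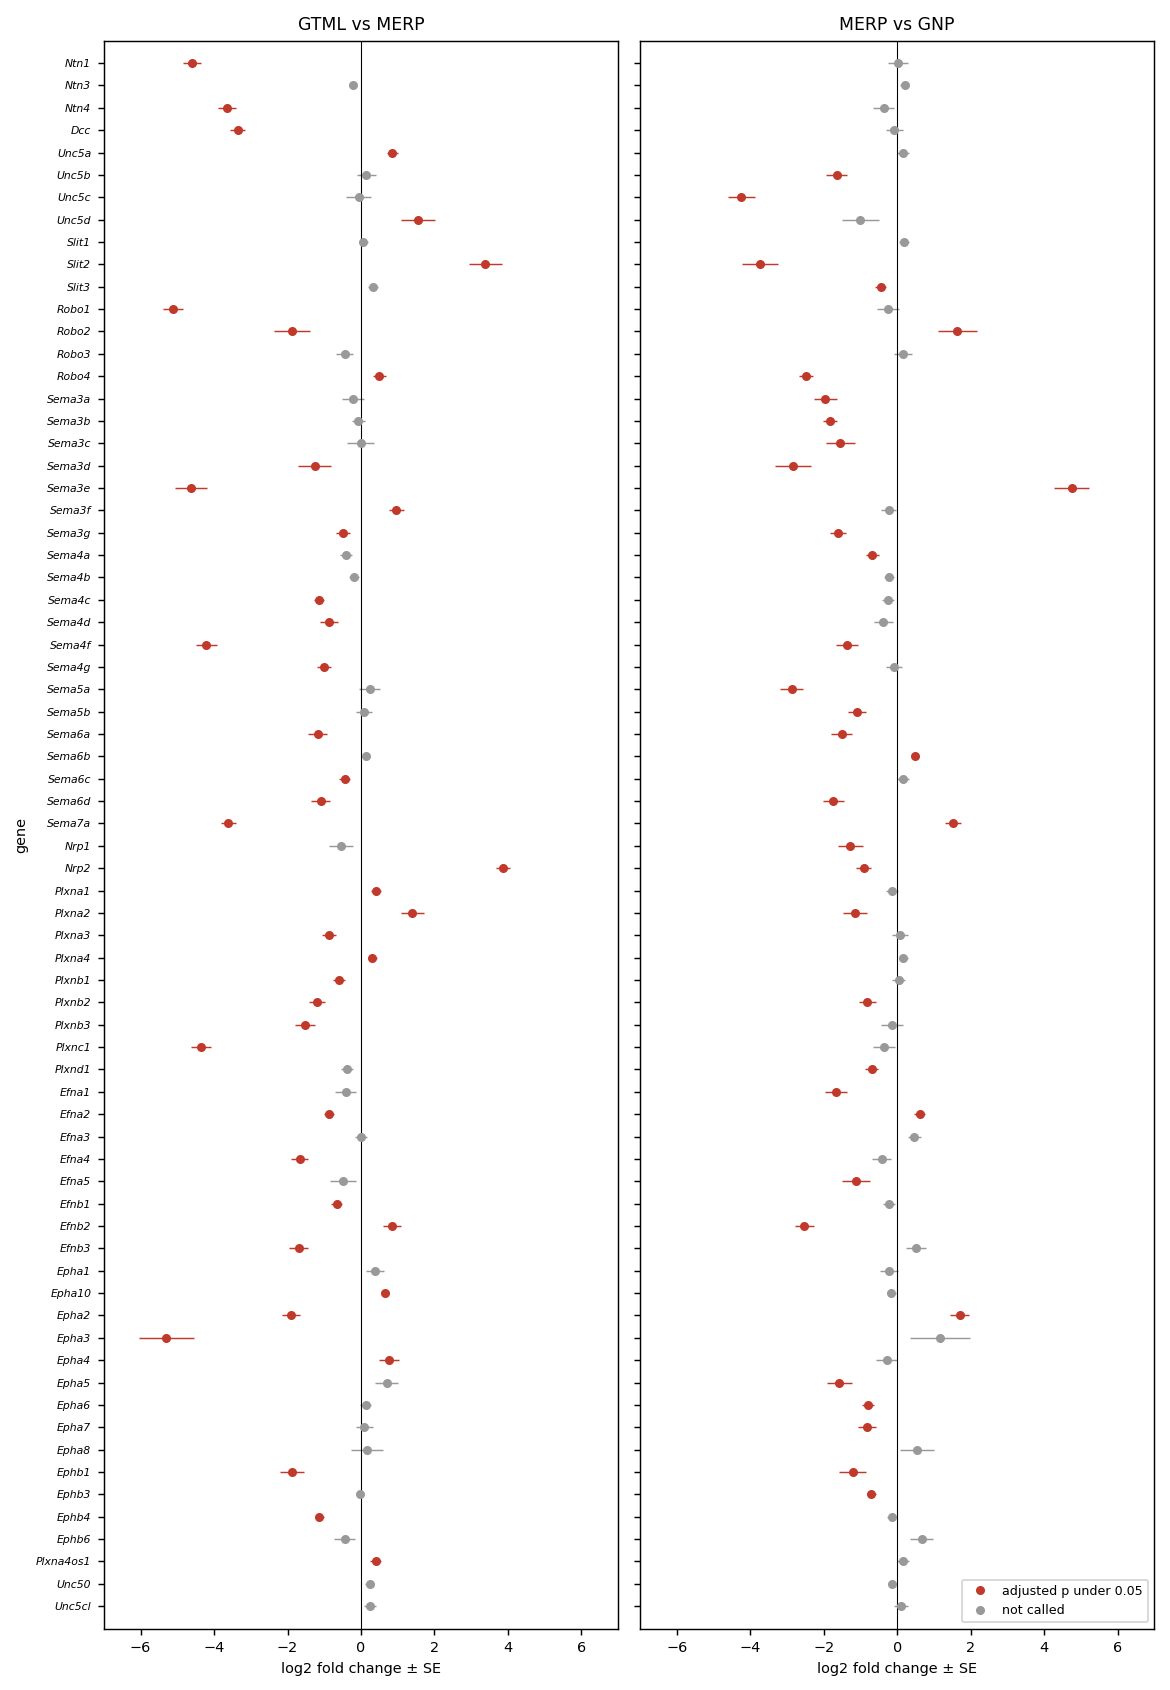
Log2 fold change with SE (horizontal) of the 70 members (rows) in GTML against MERP tumours (left) and in MERP tumours against GNPs (right), with members called at an adjusted p under 0.05 in red and others in grey. Robo1, Ntn1, Plxnc1 and Epha3 are far left in GTML tumours, Nrp2 is far right there, and Sema3e is far right in MERP tumours.

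CRISPR-Ptch1 tumours were set against GTML tumours for the same question. Here 37 of 70 members were called, 52.9%, against 36.8% of all genes, with 28 higher and 9 lower in CRISPR-Ptch1 tumours (22.7% and 14.1% of all genes). Robo1, Ntn1, Plxnc1, Ntn4 (3.92 ± 0.29, adjusted p = 1.49e-09) and Sema3e (3.80 ± 0.51, adjusted p = 4.92e-06) led the increases, and Nrp2, Slit2, Plxna2 (-1.02 ± 0.35, adjusted p = 0.0247), Unc5a (-1.002 ± 0.17, adjusted p = 9.74e-05) and Sema3f (-0.64 ± 0.22, adjusted p = 0.0273) the decreases. Plxna2 lost its call without EP tumour 1, the TF tumour, GTML tumour 2 or GTML tumour 4, and Sema3f without any 1 of the 3 CRISPR-Ptch1 tumours or without GTML tumour 1, 2 or 3. Transmembrane semaphorins had 8 of 12 members higher and 1 lower, and secreted semaphorins 4 of 7 higher and 1 lower. Both comparisons use the same GTML arrays, so repeated genes are not separate evidence. All 10 granule precursor markers were higher in CRISPR-Ptch1 than in GTML tumours, with the levels given above. So were 4 of 5 oligodendrocyte precursor markers (9.76 to 10.10 in CRISPR-Ptch1 and 5.63 to 7.20 in GTML tumours), and the part of these markers in the result was not tested. The RNA gap was 0.19 to 0.23 in CRISPR-Ptch1 and 1.10 to 1.28 in GTML tumours. With it as a covariate, an alternative chosen after seeing the data, 27 members and 22.0% of all genes were called, and Slit2 (-2.18, adjusted p = 0.0515) and Plxna2 (-1.22, adjusted p = 0.102) were not. Centring each array on the median of its named genes gave 40 calls, with 21 higher and 19 lower (12.7% and 44.9% of all genes).

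MERP tumours against GNPs asked how a granule lineage tumour differs from bulk samples of normal progenitors. It called 35 of 70 members, against 19.2% of all genes. Of these, 6 were higher and 29 lower in MERP tumours, where 7.12% and 12.1% of all genes were higher and lower. The increases were led by Sema3e, Epha2 (1.70 ± 0.27, adjusted p = 5.86e-05), Robo2, Sema7a and Efna2 (0.62 ± 0.15, adjusted p = 0.00449), and the decreases by Unc5c, Slit2, Sema5a (-2.87 ± 0.31, adjusted p = 3.79e-07), Sema3d and Efnb2. Secreted semaphorins had 1 of 7 higher and 5 lower, transmembrane semaphorins 1 of 12 higher and 6 lower, and Eph receptors 1 of 13 higher and 5 lower. All 8 endothelial and pericyte markers (6.35 to 7.43 in MERP tumours and 9.76 to 10.41 in GNPs) and all 6 meningeal markers (6.07 to 6.87 in MERP tumours and 10.20 to 10.50 in GNPs) were lower in MERP tumours, as were Robo4 (-2.49 ± 0.20, adjusted p = 4.12e-09) and Efnb2, which vessels also express. Choroid plexus markers were lower in MERP tumours in 4 of 6 (5.81 to 6.77, against 9.19 to 10.03 in GNPs). Inhibitory lineage markers were lower in 3 of 5 (5.52 to 5.79, against 8.48 to 8.55 in GNPs). In such bulk samples fewer cells of a type and less RNA per cell cannot be told apart, and the part of these markers in the result was not tested. Centring on named genes gave 37 calls, with 11 higher and 26 lower (34.1% and 9.09% of all genes). With the RNA gap as a covariate Robo2 (0.72, adjusted p = 0.345) and Efna2 (0.44, adjusted p = 0.0591) were not called.

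CRISPR-Ptch1 tumours against GNPs gave 24 of 70 members, 34.3%, against 13.7% of all genes. Only Sema3e and Sema7a were higher, and 22 members were lower, where 5.79% and 7.95% of all genes were higher and lower. Unc5c, Slit2, Sema4f, Efnb2 (-2.21 ± 0.29, adjusted p = 1.35e-05) and Robo4 (-2.16 ± 0.22, adjusted p = 3.38e-07) fell most. The 4 called semaphorin receptors of 11 and the 4 called ephrin ligands of 8 were all lower. Endothelial and pericyte markers were again lower in 7 of 8 (7.65 to 8.36 in CRISPR-Ptch1 tumours and 9.76 to 10.41 in GNPs). All 6 meningeal markers were lower too (7.50 to 8.68 in CRISPR-Ptch1 tumours and 10.20 to 10.50 in GNPs). Purkinje markers were higher in 4 of 6 (8.08 to 10.63 in CRISPR-Ptch1 tumours and 7.24 to 7.43 in GNPs) and microglia markers in 5 of 9 (8.16 to 9.35 in CRISPR-Ptch1 tumours and 7.16 to 7.42 in GNPs). The part of these markers in the result was not tested. Without GNP sample 1 the count was 13, with 2 higher and 11 lower. The share of all genes was not tallied in that setting, so this drop is no result about the members.

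The narrowest comparison was CRISPR-Ptch1 against MERP tumours, which asked whether somatic disruption gives the same profile as a genetic model. It called 10 of 70 members, 14.3%, near the 13.3% of all genes, and a share this close to the background is no result about the members. Of these, 6 were higher and 4 lower (8.20% and 5.15% of all genes). Epha5 (2.49 ± 0.34, adjusted p = 0.000111), Sema5a (1.97 ± 0.31, adjusted p = 0.000431), Sema3d (1.81 ± 0.48, adjusted p = 0.0179), Sema3c and Unc5c (1.29 ± 0.37, adjusted p = 0.0271) were highest, followed by Sema3g (0.68 ± 0.21, adjusted p = 0.0365), and Epha2 (-1.43 ± 0.27, adjusted p = 0.0017), Sema4f, Efna2 (-0.66 ± 0.15, adjusted p = 0.00565) and Ephb4 (-0.44 ± 0.14, adjusted p = 0.0436) were lower. Without EP tumour 1 or EP tumour 2 the count was 6, and Sema3d, Unc5c and Ephb4 were then not called, nor was Sema3c without EP tumour 2 (1.53, adjusted p = 0.0526). The share of all genes was not tallied in these settings. A further Efna2 probe set differed by 0.01, and the other probe sets of Sema5a by 0.81, -0.005 and 0.16, without a test. With the TF tumour standing for the group, Sema5a differed by 1.10. All 6 Purkinje cell markers were higher in CRISPR-Ptch1 tumours (8.08 to 10.63, against 5.36 to 5.82 in MERP tumours). So were 7 of 9 microglia markers (8.16 to 9.35, against 6.89 to 7.63 in MERP tumours), and the part of both lists in the result was not tested. The RNA gap separated the groups as given above. With that gap as a covariate, 4 members and 4.59% of all genes were called. Of the calls lost, Unc5c stood at 1.56 (adjusted p = 0.0648), no smaller than without the covariate, and Sema4f at -0.998 (adjusted p = 0.145). Sema3d stood at 1.21 (adjusted p = 0.252), Efna2 at -0.42 (adjusted p = 0.163) and Ephb4 at -0.37 (adjusted p = 0.262). Centring on named genes called 20, with 5 higher and 15 lower (5.19% and 17.4% of all genes), and centring on all probe sets 14, with 5 higher and 9 lower (6.93% and 6.95% of all genes).

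Against Ptch1+/- tumours, CRISPR-Ptch1 tumours differed in 25 of 70 members, 35.7%, and 36.8% of all genes were called. Of these, 8 members were higher and 17 lower, whereas 28.5% of all genes were higher and 8.33% lower. Epha5 (2.81 ± 0.36, adjusted p = 7.78e-06), Sema3c, Sema5a (1.82 ± 0.32, adjusted p = 0.000174), Efna4 (1.22 ± 0.27, adjusted p = 0.00139) and Nrp2 (0.999 ± 0.21, adjusted p = 0.000837) were the largest increases. Sema4f, Robo2, Plxnb2 (-1.46 ± 0.24, adjusted p = 8.66e-05), Epha8 (-1.37 ± 0.49, adjusted p = 0.0335) and Plxna3 (-1.27 ± 0.23, adjusted p = 0.000199) were the largest decreases, and Epha8 lost its call without EP tumour 1, EP tumour 2, Ptch1+/- tumour 1 or Ptch1+/- tumour 3. Nrp2 was not called with the mean of its probe sets (0.36, adjusted p = 0.0772), and its other 3 probe sets differed by 0.14, 0.33 and -0.03. The other probe sets of Sema5a differed by 0.25, -0.16 and 0.17, without a test, so the size of its change rests on 1 probe set. With the TF tumour standing for the group, Sema5a differed by 0.95. Semaphorin receptors had 4 of 11 members lower and 1 higher. All 6 Purkinje markers were higher in CRISPR-Ptch1 tumours (8.08 to 10.63, against 5.40 to 5.61 in Ptch1+/- tumours). All 9 microglia markers (8.16 to 9.35, against 6.27 to 8.09) and 6 of 8 mature granule neuron markers (9.23 to 11.42, against 8.35 to 8.69) were higher there too. The part of these markers in the result was not tested. The RNA gap was narrower on every CRISPR-Ptch1 array than on any Ptch1+/- array, and with the gap as a covariate 6 members (4 higher and 2 lower) and 9.40% of all genes were called. Of the calls lost, Epha8 kept a fold change of -1.34 (adjusted p = 0.305). Robo2 stood at -0.29 (adjusted p = 0.825), Efna4 at 0.44 (adjusted p = 0.485) and Plxna3 at -0.61 (adjusted p = 0.213). Centring on named genes called 45, with 5 higher and 40 lower (11.5% and 44.0% of all genes).

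Against adult cerebellum, CRISPR-Ptch1 tumours differed in 41 of 70 members, 58.6%, against 47.5% of all genes. Among them 20 were higher and 21 lower (26.4% and 21.1% of all genes). Dcc, Robo1, Efna4 (2.49 ± 0.27, adjusted p = 1.37e-07), Sema3e (2.06 ± 0.51, adjusted p = 0.00178) and Sema6a (1.82 ± 0.30, adjusted p = 2.63e-05) were the largest increases, and Sema3a, Sema4f (-2.18 ± 0.32, adjusted p = 6.71e-06), Unc5d (-1.98 ± 0.53, adjusted p = 0.00385), Unc5c (-1.92 ± 0.39, adjusted p = 0.000318) and Epha4 (-1.82 ± 0.31, adjusted p = 3.77e-05) the largest decreases. Semaphorin receptors were higher in 6 of 11 and lower in 3, while netrin receptors were lower in 4 of 5 and higher in 1, Dcc. All 6 Purkinje markers were lower in CRISPR-Ptch1 tumours (8.08 to 10.63) than in adult cerebellum (13.38 to 13.48), all 7 proliferation markers were higher, and their part in the result was not tested. Sema3e was not called with its probe set of highest SD (adjusted p = 0.0816). Further probe sets differed by -0.15 and 0.53 for Sema6a and by 0.11 and -0.09 for Robo1, without a test. With a minimum of 2-fold, 21 members and 23.3% of all genes were called.

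GNPs against adult cerebellum compared normal progenitors with an adult tissue of mixed cell types, so the course of 1 cell type was not followed. It called 40 of 70 members, 57.1%, against 50.1% of all genes, with 28 higher and 12 lower in GNPs (29.1% and 21.0% of all genes). Dcc, Sema6a (2.83 ± 0.30, adjusted p = 5.38e-08), Robo1 (2.62 ± 0.31, adjusted p = 2.76e-07), Plxnb2 (2.62 ± 0.24, adjusted p = 7.56e-09) and Efna4 (2.57 ± 0.27, adjusted p = 6.9e-08) were the largest increases, and Unc5d (-1.89 ± 0.53, adjusted p = 0.00514), Sema3e (-1.85 ± 0.51, adjusted p = 0.00401), Epha4 (-1.83 ± 0.31, adjusted p = 2.92e-05), Sema3c (-1.12 ± 0.42, adjusted p = 0.0295) and Sema3a (-1.09 ± 0.34, adjusted p = 0.00964) the largest decreases. Sema3c lost its call without GNP sample 2 or 3 or without adult sample 2, 3 or 4, Epha4 with the probe set of highest SD (adjusted p = 0.0723) and Sema3a with the mean of its probe sets (adjusted p = 0.384). Further probe sets differed by -0.14 and 1.32 for Sema6a, 0.16 and -0.43 for Robo1, and 0.76 and -0.39 for Sema3a, without a test. Ephrin ligands were higher in 6 of 8 and lower in 1, and semaphorin receptors higher in 7 of 11 and lower in 2. Endothelial and pericyte markers were higher in GNPs in 7 of 8 (9.76 to 10.41, against 8.12 to 8.28 in adult cerebellum), and their part in the result was not tested. Centring on named genes gave 42 calls, with 24 higher and 18 lower (22.2% and 30.9% of all genes).

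**Figure D4:**
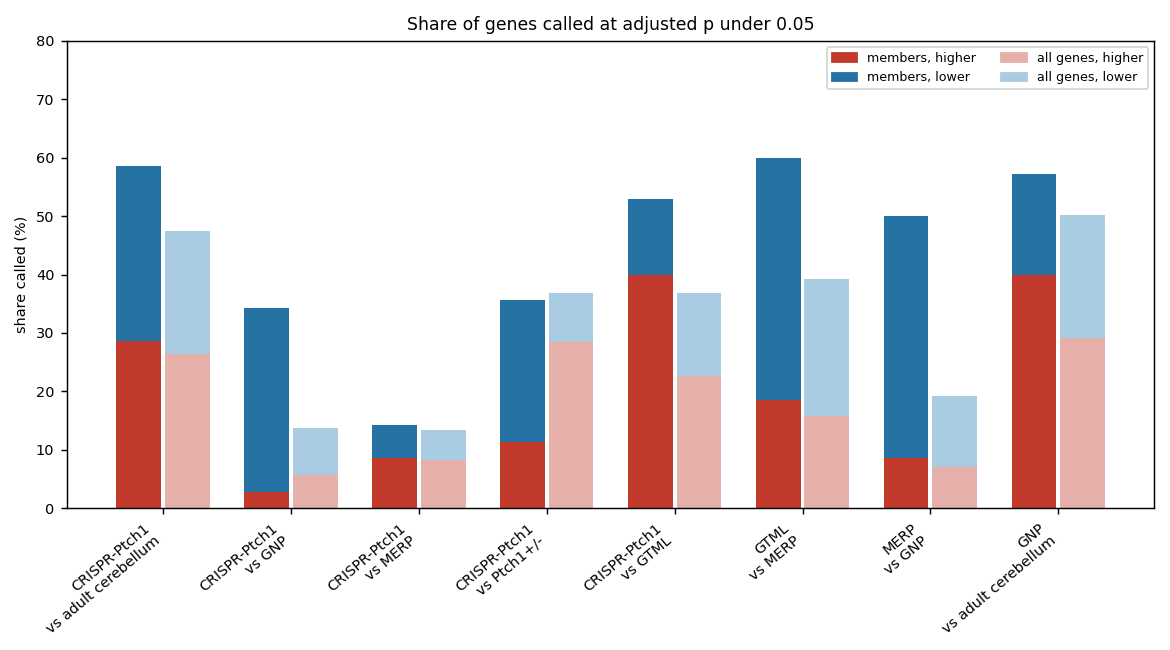
Share of the 70 members (dark bars) and of all 18194 genes (pale bars) called at an adjusted p under 0.05 in each of 8 comparisons, in percent, stacked as higher (red) and lower (blue) in the first-named group. Members exceed all genes in MERP tumours against GNPs (35 of 70, and 19.2%) and are close to them in CRISPR-Ptch1 against MERP tumours (14.3% and 13.3%).

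Genes that work with these receptors were taken from separate lists. Of 20 co-receptors and further cues, 4 were higher and 11 lower in GTML than in MERP tumours, with a median log2 fold change of -1.15 (39.2% of all genes were called, with a median of -0.04). Draxin, a secreted repellent that binds Dcc, changed by -5.03, Cntn2, an adhesion protein of granule axons, by -3.36, and Cntn1, its relative, by 3.61. Of 40 intracellular effectors, 10 were higher and 20 lower, with a median of -0.46, led by Dock1, an activator of Rac, at -3.96 and Chn1, a Rac regulator, at 3.21. Gap43, a growth cone protein, changed by -3.07. CRISPR-Ptch1 against GTML tumours gave 13 of 20 higher and 1 lower in the first list and 23 of 40 higher and 6 lower in the second, against 36.8% of all genes called. In MERP tumours against GNPs the counts were 3 higher and 6 lower of 20, and 4 higher and 10 lower of 40, against 19.2% of all genes called. CRISPR-Ptch1 tumours against GNPs had 3 higher and 2 lower of 20, and 2 higher and 2 lower of 40, against 13.7% of all genes called.

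The EP and TF tumours differ in age at gene transfer, in the method of delivery and in genotype. The methods also name a different strain for each, although the labels give CD1 for both. With 1 TF tumour no test was made between them. The TF tumour lay below both EP tumours in Epha3 (7.95, against 9.44 and 10.43), Sema4f (7.70, against 8.55 and 8.90), Unc5c (7.44, against 8.70 and 9.43) and Ntn1 (9.57, against 10.72 and 10.60). It lay above both in Sema7a (12.40, against 11.46 and 11.34) and Slit2 (6.98, against 5.17 and 6.22). These differences were smaller than those between CRISPR-Ptch1 and GTML tumours in Ntn1 and Sema7a, where EP and TF tumours together lay above all GTML tumours.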

How the data were processed

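Expression was measured in 23 samples on Affymetrix Mouse Genome arrays, and the log2 values deposited by the authors were computed with Affymetrix Expression Console 1.3.1 by RMA, which corrects background, normalizes across arrays and summarizes the probes of a set. Which arrays were normalized together is not given in the sources used here, the files hold no detection calls, and the number of arrays limits the precision. Values were used as given (0 missing, 0 columns unused). Of 45101 probe sets, 34958 carried a single gene name (34754 matched by Entrez identifier), 932 several names and 9211 no name. The single-name set of highest mean stood for each of 18194 genes. The 70 members had 155 probe sets, and 24 members had only 1. EP and TF tumours formed 1 group. Tests used the limma package (version 3.58.1, under R 4.3.3) in 1 linear model of 6 groups followed by empirical Bayes moderation, with Benjamini-Hochberg adjustment over all genes of a comparison, after the script was tested on simulated data.

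The 16 members with the largest range of group means are given by sample, and in each comparison up to 5 called members with the largest increase and up to 5 with the largest decrease are named, with 1 member per family chosen for its highest mean. The members, lists and rules were chosen with earlier results of these data known. Alternatives were other choices of probe set, 2 centrings, a filter on dim genes, a 2-fold minimum, moderated tests with trend and robust settings, array weights, fits of the compared groups alone, EP or TF tumours alone, a replicate block, each array left out, and the RNA gap as a covariate.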

Additional observations from a re-analysis of the deposited data

Results flagged for a closer look

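Each of the 16 members described by sample was examined in each group of 4 or 5 arrays, 64 cases in all. In 6 of these cases 1 value stood apart from the rest of its group by Dixon's criterion, where chance alone gives about 1 in 20. MERP tumour 5 was low in Sema4f (9.17, with the other 4 between 9.69 and 9.86) and high in Sema3a (7.12, with the nearest other at 5.998). GTML tumour 1 was low in Ntn4 (5.02, with the others between 6.43 and 6.68). Adult cerebellum 3 was low in Plxnc1 (9.05, nearest other 9.15) and in Ntn4 (9.55, nearest other 9.65), and adult cerebellum 2 was high in Slit2 (6.75, nearest other 6.555), all within a group whose arrays lay very close together.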

How the results depend on the processing

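Leaving out each array in turn gave 34 to 44 called members for CRISPR-Ptch1 tumours against adult cerebellum, 13 to 25 against GNPs, 6 to 14 against MERP, 21 to 26 against Ptch1+/- and 29 to 38 against GTML tumours, 38 to 42 for GTML against MERP tumours, 29 to 36 for MERP tumours against GNPs and 37 to 42 for GNPs against adult cerebellum. The lowest of these counts without 1 array were 13 against GNPs (without GNP sample 1) and 6 against MERP tumours (without EP tumour 1 or 2). With all arrays the counts were 41, 24, 10, 25, 37, 42, 35 and 40 in the same order. A 2-fold minimum gave 21 for CRISPR-Ptch1 tumours against adult cerebellum, 14 against Ptch1+/- tumours, and 26 for GTML against MERP tumours. Of all 18194 genes it called 4245, 2184 and 2510 in these comparisons. CRISPR-Ptch1 against MERP tumours gave 20 with arrays centred on named genes, 24 with array weights, 3 with the TF tumour only and 4 with the RNA gap as a covariate. CRISPR-Ptch1 against Ptch1+/- tumours gave 45 with centring on named genes, 15 with the TF tumour only and 6 with the gap as a covariate, and CRISPR-Ptch1 against GTML tumours gave 21 with the TF tumour only. Array weights were estimated gene by gene because the default estimate did not converge. The cause of these shifts was not tested. Shares of all genes were not tallied with array weights, a replicate block, the TF tumour only or single arrays left out. Those counts cannot tell a change in the members from a change in all genes. Centring on all probe sets gave 5 higher and 9 lower in CRISPR-Ptch1 against MERP tumours and 8 higher and 32 lower in GTML against MERP tumours. Centring shifts all genes of an array alike, so these splits are to be read against the shares of all genes given with them above. No named fold change reversed its direction under the alternatives run, which did not include every further probe set alone. Each gene, comparison and setting counted as 1 case. Among settings other than left-out arrays, a named call was kept in 876 cases and lost in 52. With single arrays left out it was kept in 1704 and lost in 44. Further probe sets of called members were compared by sign alone, where either group mean reached 4.98. The sign was shared by 36 of 39, 21 of 24, 5 of 6, 20 of 20, 32 of 35, 33 of 39, 31 of 33 and 31 of 39, in the order of the counts above.

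Replicate numbers are shared between the groups' labels, but they did not pair the samples: over 46 pairs of same-numbered arrays the correlation of deviations ran from -0.278 to 0.233, with a median of -0.0045. With the replicate number as a block and the TF tumour left out, the counts were 34, 21, 12, 21, 34, 38, 37 and 42 in the order of the comparisons above, each within 1.5 times the count without the block. RMA values carry no detection call, so a member near background has no measured lower level, and 3 arrays of CRISPR-Ptch1 tumours and of GNPs limit what those comparisons can show.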
